A study of Mus musculus with 18 samples.

Results

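Regions bound by MYC in liver tumours that kept 1 Arid1a allele (Het), and found or not found again in tumours with both alleles floxed (Homo), are the subject here. Overlapping peaks of the 3 Het and 3 Homo MYC libraries were merged into 2467 regions, of 4775 regions in all 9 MYC libraries of the study. Of the 2467, 865 had a peak in 2 or more Het libraries and in no Homo library (Het-only regions) and 96 had a peak in 2 or more libraries of both genotypes (kept regions). All mice were FVB animals that carried LAP-tta and TRE-MYC, a transgene pair in which a liver promoter drives a tetracycline-controlled activator and MYC is switched on when doxycycline water is withdrawn. Het mice were Arid1a fl/+ with Alb-cre and about 70 days old, and Homo mice were Arid1a fl/fl with Alb-cre and about 100 days old. Arid1a fl/fl mice without Cre, about 55 days old, are the WT group and were used only as libraries that the choice of regions had not used. Tumours were frozen after collection at death, so age at collection changed together with genotype and their parts in any difference cannot be told apart. Alb-cre acts in cells that express albumin, so other cells of a tumour keep their alleles. The labels do not say whether replicate libraries came from separate animals, so the p-values given here speak of the spread among these libraries alone, part of which may be technical.

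MYC is a transcription factor that pairs with MAX and binds the E-box CACGTG and close variants such as CACGCG, mostly in CpG-rich promoters of expressed genes. Its best known targets make ribosomes, translation factors, nucleotides and polyamines, the machinery a growing cell needs. ARID1A is a subunit of the SWI/SNF (BAF) remodelling complex, which moves nucleosomes at promoters and enhancers. The comparison asks which MYC sites of Het tumours are also listed in Homo tumours. A peak list holds only positions that passed the peak caller, so a region without a Homo peak is one that was not called there, and its Homo signal is not known.

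The 300-base RefSeq windows below (GRCm38.p6, 250 bases before to 50 after the start, 5′ to 3′ on the gene's strand) show what the 2 classes look like at gene starts. Each holds the MYC summit, and capitals mark CACGTG (which reads the same on both strands) and CACGCG or its reverse complement CGCGTG. Copies of the second word on opposite strands can overlap. Cct2, a subunit of the chaperonin that folds actin and tubulin, lies on the minus strand at chr10:117063326-117063625. Ncoa5, a nuclear receptor coregulator, lies on the minus strand at chr2:165034730-165035029. G6pc3, a glucose-6-phosphatase, lies on the plus strand at chr11:102189449-102189748.
Cct2: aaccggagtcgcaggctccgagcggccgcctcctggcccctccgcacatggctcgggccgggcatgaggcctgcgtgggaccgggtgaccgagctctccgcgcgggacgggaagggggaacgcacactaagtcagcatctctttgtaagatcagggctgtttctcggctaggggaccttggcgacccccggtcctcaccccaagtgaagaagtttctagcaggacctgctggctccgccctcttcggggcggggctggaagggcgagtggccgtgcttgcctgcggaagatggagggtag
Ncoa5: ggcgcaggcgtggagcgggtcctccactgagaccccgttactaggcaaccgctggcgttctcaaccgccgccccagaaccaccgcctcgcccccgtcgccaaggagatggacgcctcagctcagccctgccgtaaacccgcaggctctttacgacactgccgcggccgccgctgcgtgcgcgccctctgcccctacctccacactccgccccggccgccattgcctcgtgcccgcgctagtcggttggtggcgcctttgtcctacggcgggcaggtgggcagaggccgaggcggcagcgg
G6pc3: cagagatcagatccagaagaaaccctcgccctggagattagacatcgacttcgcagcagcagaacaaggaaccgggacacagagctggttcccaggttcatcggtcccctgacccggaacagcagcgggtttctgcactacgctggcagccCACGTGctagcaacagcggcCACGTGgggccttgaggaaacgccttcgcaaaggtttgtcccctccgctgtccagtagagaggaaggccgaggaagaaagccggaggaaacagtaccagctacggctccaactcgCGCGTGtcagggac

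The MYC summit lay at base 65 of the Cct2 window and base 273 of the Ncoa5 window, and neither window held either word. G6pc3 held 2 copies of CACGTG, and its summit lay 18.5 bases from the middle of the nearer one. Further Het-only windows were chosen for an E-box in a gene of protein synthesis. Tars, the threonyl-tRNA synthetase, lies on the minus strand at chr15:11399609-11399908, and Rpl14, a protein of the large ribosomal subunit, on the plus strand at chr9:120571267-120571566.
Tars: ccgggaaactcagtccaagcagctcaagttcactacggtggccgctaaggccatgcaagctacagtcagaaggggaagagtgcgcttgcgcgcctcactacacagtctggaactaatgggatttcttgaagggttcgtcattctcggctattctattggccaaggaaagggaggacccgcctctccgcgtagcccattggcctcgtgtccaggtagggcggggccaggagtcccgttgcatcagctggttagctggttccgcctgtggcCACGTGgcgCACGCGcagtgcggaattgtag
Rpl14: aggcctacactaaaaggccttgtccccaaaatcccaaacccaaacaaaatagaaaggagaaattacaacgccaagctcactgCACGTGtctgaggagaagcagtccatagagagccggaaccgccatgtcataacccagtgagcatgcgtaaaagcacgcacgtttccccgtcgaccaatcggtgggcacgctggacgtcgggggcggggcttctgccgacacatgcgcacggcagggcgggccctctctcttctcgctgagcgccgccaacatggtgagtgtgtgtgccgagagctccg

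The Tars summit lay 1.5 bases from the middle of its CACGTG, the closest of the windows shown, and the Rpl14 summit 121.5 bases from its copy. The kept windows are those of Dazap1 (an RNA-binding protein; plus strand, chr10:80264764-80265063), Psme3 (the proteasome activator PA28 gamma; plus strand, chr11:101315963-101316262), Xpot (the exporter of tRNA from the nucleus; minus strand, chr10:121626283-121626582) and Ran (the GTPase that drives nuclear transport; plus strand, chr5:129019906-129020205).
Dazap1: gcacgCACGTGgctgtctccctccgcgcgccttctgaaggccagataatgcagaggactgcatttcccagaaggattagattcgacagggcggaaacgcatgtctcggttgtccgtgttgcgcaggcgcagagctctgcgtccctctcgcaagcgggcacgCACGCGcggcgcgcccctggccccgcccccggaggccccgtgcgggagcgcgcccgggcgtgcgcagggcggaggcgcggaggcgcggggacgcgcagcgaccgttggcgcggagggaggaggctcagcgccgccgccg
Psme3: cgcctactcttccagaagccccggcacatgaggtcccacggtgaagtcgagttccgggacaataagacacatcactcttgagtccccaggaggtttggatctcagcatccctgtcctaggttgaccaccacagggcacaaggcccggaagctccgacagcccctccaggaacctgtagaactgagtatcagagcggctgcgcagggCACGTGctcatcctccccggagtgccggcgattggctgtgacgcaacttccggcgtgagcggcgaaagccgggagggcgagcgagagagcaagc
Xpot: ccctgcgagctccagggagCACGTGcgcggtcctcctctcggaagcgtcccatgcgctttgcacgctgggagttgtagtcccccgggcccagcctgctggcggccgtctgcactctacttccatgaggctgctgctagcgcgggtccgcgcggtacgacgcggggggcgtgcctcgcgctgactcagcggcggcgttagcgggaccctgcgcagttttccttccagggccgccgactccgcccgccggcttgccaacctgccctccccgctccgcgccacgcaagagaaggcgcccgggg
Ran: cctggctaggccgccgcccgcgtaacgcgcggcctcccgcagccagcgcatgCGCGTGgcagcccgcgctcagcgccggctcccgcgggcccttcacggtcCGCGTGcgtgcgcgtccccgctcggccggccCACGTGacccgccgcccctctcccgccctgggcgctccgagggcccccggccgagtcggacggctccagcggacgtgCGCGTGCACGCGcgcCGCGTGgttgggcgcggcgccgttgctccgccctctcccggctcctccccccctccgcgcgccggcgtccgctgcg

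All 4 kept windows held 1 CACGTG, and Ran held 5 copies of CACGCG or CGCGTG as well. Distances from summit to E-box middle were 12.5 bases at Dazap1, 93.5 at Psme3, 60.5 at Xpot and 20.5 at Ran. The Ran and Rpl14 windows, and that of Tars, were picked among list members that hold CACGTG, so the words in them are no sample of their class. Over all genes with a RefSeq window, CACGTG stood in 127 of 589 Het-only genes (21.6%, exact Clopper-Pearson 95% interval 18.3 to 25.1%), in 43 of 135 genes found in 1 Homo library (31.9%, 24.1 to 40.4%) and in 15 of 43 kept genes (34.9%, 21.0 to 50.9%). The share in all 21238 protein-coding start windows was 7.84%. CACGCG stood in 36.3%, 38.5% and 37.2% of the same 3 classes and in 12.1% of all windows. Median GC content was 64.7%, 64.0% and 66.0% in these classes and 56.3% in all windows, and the shares were not adjusted for it. The windows counted need not hold the summit, which could lie up to 1 kb from the start. The E-box shares differed in order, while their intervals overlapped, and the CACGCG shares were close to each other. Where an E-box was present, the median distance from summit to E-box was 48.5 bases in Het-only, 43.5 in 1-Homo and 60.5 in kept genes. These intervals, and all others given for shares, cover counting error only.

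The 3 Het lists held 1713, 1869 and 378 peaks while those of Homo held 112, 51 and 303 (replicates 1, 2 and 3 in turn). All Homo lists were shorter than all Het lists, on the geometric mean by 8.88 times (difference in log10 -0.948, exact two-sided permutation test p = 0.1, the smallest that 3 against 3 allows, 0.2 after Benjamini-Hochberg adjustment over 2 tests). Input depth, solved from the deposited peak values, was 3.63 to 4.34 reads per kb in Het and 3.37 to 3.69 in Homo, and MYC library depth was 7.80 to 15.2 in Het and 8.60 to 12.4 in Homo. Input was thus deeper in 2 of the 3 Het libraries than in any Homo library. Summits lay within 1 kb of the start of a protein-coding gene (a gene start from here on) for 68.4%, 69.6% and 50.8% of the Het peaks and for 62.5%, 27.5% and 63.0% of the Homo peaks. Het replicate 3 stood apart from its group in both length and gene-start share, and Homo replicate 2, the shortest list, in gene-start share. The mean share differed by -11.9 percentage points in Homo against Het (62.9% ± 10.5 and 51.0% ± 20.4, SD, n = 3 each; exact two-sided permutation test p = 0.5, adjusted 0.5). Without Homo replicate 2 the difference was -0.15 points. In WT, replicate 1 stood apart with 92 peaks and a gene-start share of 17.4%.

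**Figure D1:**
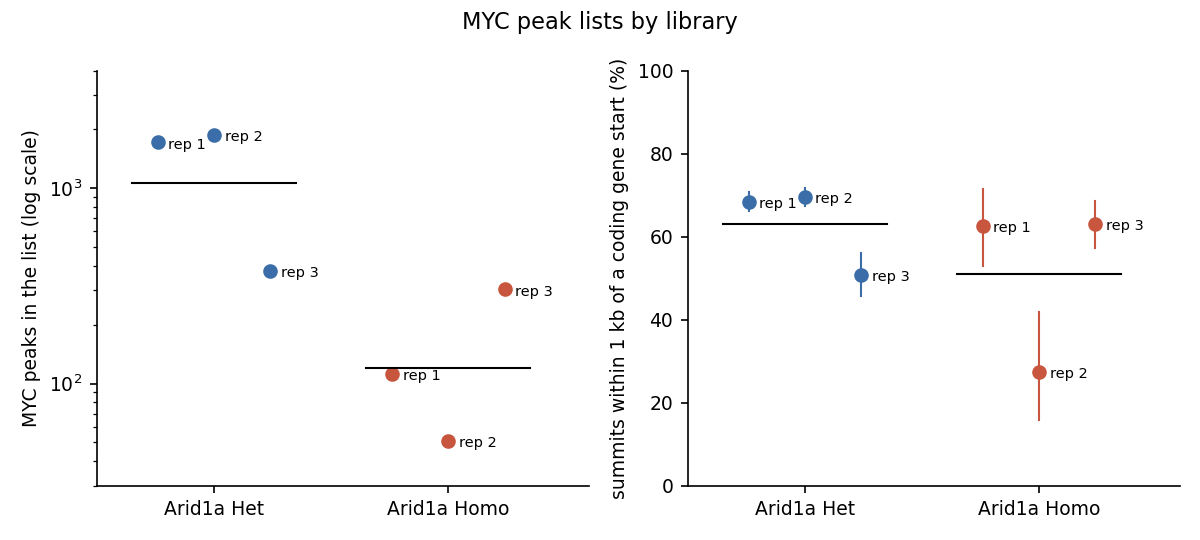
Number of MYC peaks (left, log scale) and percent of summits within 1 kb of a protein-coding gene start (right, with exact 95% intervals) in each Het and Homo library. Points are libraries labelled with the replicate number and lines are group means, geometric on the left. All Homo lists are shorter than all Het lists, and Homo replicate 2 has the lowest gene-start share at 27.5%.

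Of the 1177 regions with a peak in 2 or more Het libraries, 73.5% were Het-only, 8.16% were kept and the other 216 had a peak in 1 Homo library. Of all 2467 regions, 35.1% were Het-only, 3.89% were kept and 0% had a peak in 2 or more Homo libraries and none in Het. Homo peaks outside Het sites were thus rare, with 6 regions in all. These counts are fixed by the rule and carry no test. Het replicates 1 and 2 carried the Het-only class, with a peak in 854 and 849 of the 865 regions against 146 in replicate 3. Only 119 Het-only regions had a peak in all 3 Het libraries, compared with 77 of the 96 kept regions. On the Homo side, replicates 1, 2 and 3 had a peak in 77, 42 and 95 kept regions, and replicate 3 alone supplied 185 of the 216 regions with a single Homo peak. A peak in all 6 libraries was found in 21 regions.

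The size of the Het-only class moved with the limit on peaks, list length and the libraries used. With every library held to −log10 p of at least 10, 644 Het-only and 82 kept regions were left. With peaks also thinned by calculation to the shallowest input of the 6 libraries under the same limit, 443 Het-only and 71 kept regions were left, and Het-only regions were 66.5% of those in 2 or more Het libraries. With every list cut to the 51 strongest peaks, 3 Het-only and 20 kept regions were left. Leaving out Het replicate 1 or 2 left 135 Het-only regions in each case. Kept regions numbered 41 without Homo replicate 1 and 23 without Homo replicate 3.

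A larger share of Het-only than of kept regions lay at gene starts. Of the 865, 623 (72.0%, exact 95% interval 68.90 to 74.99%) had a summit at a gene start, compared with 50 of the 96 kept regions (52.1%, 41.6 to 62.4%) and 147 of the 216 with 1 Homo peak (68.1%). More than 10 kb from any protein-coding start lay 15.03% of Het-only and 34.4% of kept regions. The rest were split between gene bodies, with 17.6% of Het-only and 26.0% of kept regions, and the space between genes, with 10.4% and 21.9%. Measured with each Het library's own summits, the gene-start share of Het-only regions exceeded that of kept regions by 20.0, 19.7 and 8.11 percentage points in replicates 1, 2 and 3, in the same direction in 3 of 3 (exact sign-flip permutation p = 0.25, the smallest that 3 libraries allow, and 0.25 after adjustment over the 3 comparisons of this kind). The 3 libraries were scored on 1 shared set of regions, with replicates 1 and 2 in 854 and 849 of the 865 Het-only ones. Their differences are thus not independent of each other. Without Homo replicate 2 the mean difference was 5.34 points (15.9 with it). The 3 Het libraries then no longer shared 1 direction (exact sign-flip permutation p = 0.5). Without Homo replicate 1 the mean difference was 39.7. At gene starts the median distance from summit to start was 142 bp in Het-only and 217.5 bp in kept regions. Median widths of 531.5 bp for kept and 335 bp for Het-only regions follow in part from the rule, since kept regions merge peaks of more libraries.

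Het-only regions ranked in the middle of the Het lists and kept regions near the top. Ranks are percentiles of the authors' −log10 q within a list, 100 being the strongest peak. Medians for Het-only regions were 51.2, 55.2 and 37.5 in Het replicates 1, 2 and 3, and those for kept regions 95.2, 94.8 and 82.0. Kept regions stood higher by 44.0, 39.6 and 44.5 percentile points, in 3 of 3 libraries (exact sign-flip permutation p = 0.25, the smallest possible). The classes were chosen from these same Het lists and by calls in the shorter Homo lists, a choice that can itself favour strong regions among the kept. The 3 libraries also share most of the regions, so the gaps are no independent support for each other. At gene starts alone the gaps were 43.2, 39.6 and 32.1 points. The classes overlapped all the same. In Het replicate 1, kept regions ran from percentile 5.78 to 100 and Het-only regions from 0.234 to 99.2. The top 10% of the list held 39 Het-only and 65 kept regions in replicate 1, and 54 and 62 in replicate 2. Median summit depth in replicate 1 was 70.0 reads for Het-only and 126.5 for kept regions.

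**Figure D2:**
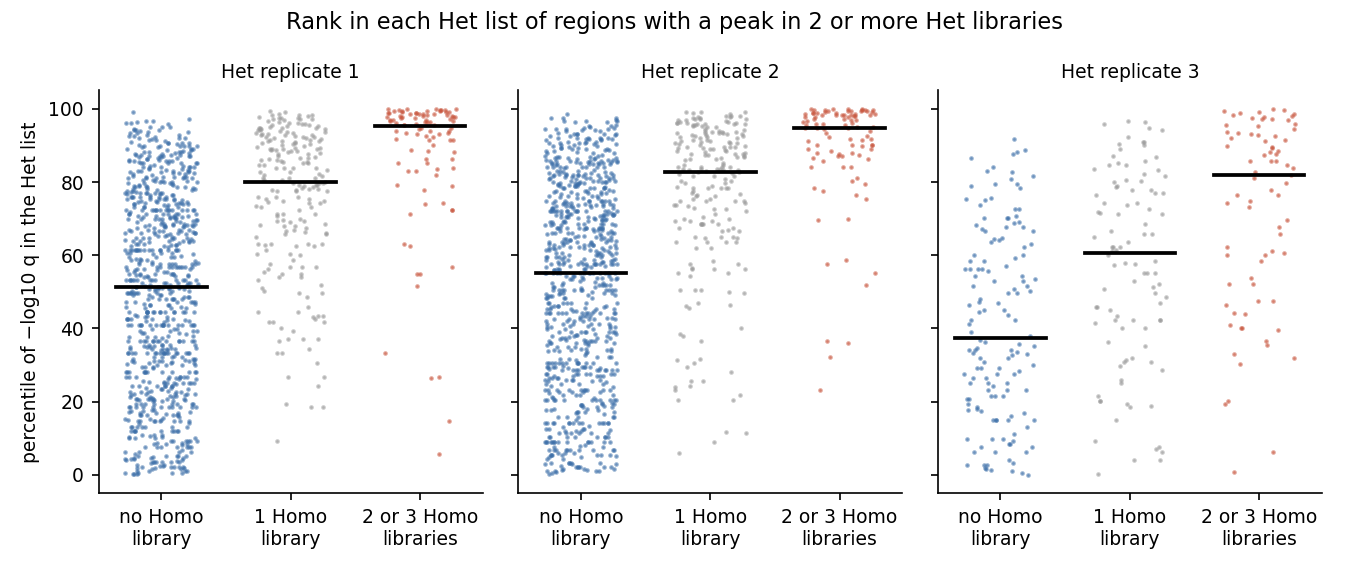
Percentile of −log10 q in each Het list (vertical axis, 100 is the strongest peak) for regions with a peak in 2 or more Het libraries, by the number of Homo libraries that also had one. Points are regions and black lines are medians, which run from 51.2 with no Homo library to 95.2 with 2 or 3 in Het replicate 1.

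Grouped by mean Het percentile, the share of regions with a peak in any Homo library ran from 2.60% of 77 regions in the lowest band (0 to 20) to 4.76%, 14.3% and 34.5% in the next bands of 20, then 53.1% between 80 and 90 and 79.8% of 89 regions above 90. Within bands below the 90th percentile, the exact intervals of gene starts and other places overlapped. The shares were 1.64% at gene starts and 6.25% elsewhere between 0 and 20, 4.65% and 5.08% between 20 and 40, and 12.1% and 19.2% between 40 and 60. Between 60 and 80, 34.8% of 227 gene-start regions and 34.0% of 103 others had a Homo peak, and between 80 and 90 the shares were 54.9% and 48.6%. Above 90 the shares were 69.6% of 46 gene-start regions (54.3 to 82.3%) and 90.7% of 43 others (77.9 to 97.4%), and the intervals overlapped. Homo replicate 2 had a peak in 28 of those 43 and in 6 of those 46, while replicate 1 had 15 and 20 and replicate 3 had 34 and 27. The order of the 2 places was thus not the same in the 3 Homo libraries.

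**Figure D3:**
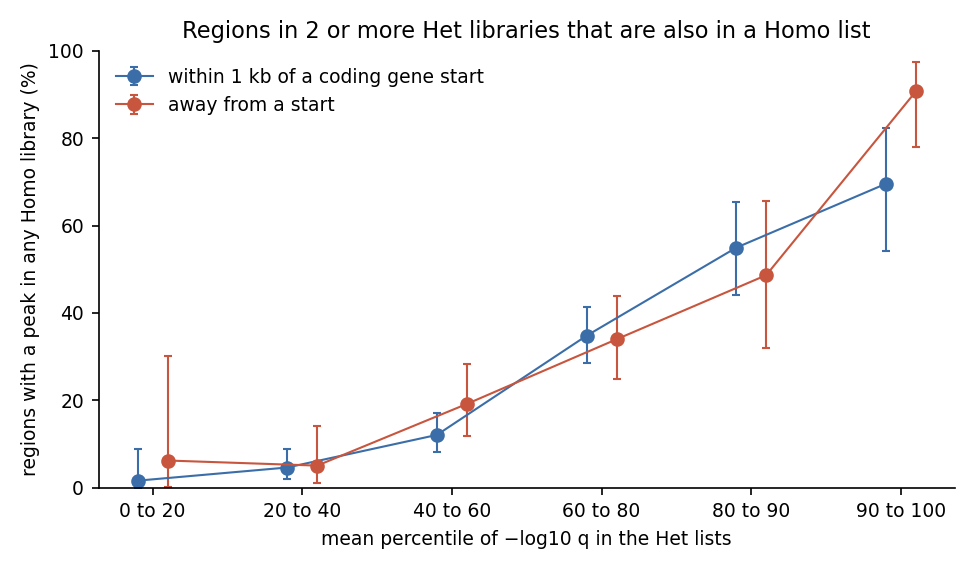
Percent of regions with a peak in 2 or more Het libraries that also had a peak in any Homo library (vertical axis) by mean percentile of −log10 q in the Het lists (horizontal axis), for gene starts and other places. Bars are exact 95% intervals. Both lines stand higher at higher ranks, and the gap between them is widest above the 90th percentile, at 69.6% and 90.7%.

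Among Het-only regions found at gene starts in all 3 Het libraries, Mbd3, Wdr4 and Ppan had the highest mean ranks. At Mbd3, a subunit of the NuRD chromatin complex (chr10:80398679-80399104), the authors' fold enrichments were 11.2, 14.1 and 6.49 in Het replicates 1, 2 and 3. Ppan, a factor for large-subunit ribosome assembly (chr9:20887788-20888660), had folds of 13.7, 14.9 and 6.31. Wdr4, a partner of the methyltransferase that modifies tRNA (chr17:31512049-31512450), had 9.47, 7.38 and 6.72. All 3 regions stood between the 73.6th and the 97.5th percentile of the Het lists, replicate 3 lowest, and no Homo library listed a peak there. At Cct2 (chr10:117063362-117063786) folds were 9.75, 19.6 and 6.61, and at Ncoa5 (chr2:165034461-165034928) 14.1, 12.2 and 6.25. Further regions of this kind lay at Ybx3, G6pc3, the shared start of Phf7 and Bap1, Setd5, Ttc25 and Pycrl. Bap1, a deubiquitinase of histone H2A, and Phf7 cannot be told apart as the bound gene, since the summit lay 4 bp from the Phf7 start. Each of the regions named here overlapped a peak in at least 1 WT library, Setd5 and Pycrl in 1 and the others in 2.

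Kept regions at gene starts were led by Ncl, nucleolin, an abundant protein of the nucleolus (chr1:86358489-86359058). Its folds were 17.0, 23.8 and 13.6 in Het and 12.97, 12.4 and 8.92 in Homo, and it was the top peak of Homo replicate 1. Each Het and Homo list ranked it at the 95.7th percentile or higher, and the Homo folds lay below the Het folds without overlap. Pemt, which makes phosphatidylcholine in the liver (chr11:60046241-60046647), had folds of 16.3, 26.1 and 14.3 in Het and 3.59, 9.90 and 13.3 in Homo. Pde4a, a cyclic AMP phosphodiesterase (chr9:21164935-21165451), had 17.1, 20.2 and 13.2 in Het and 6.73, 5.34 and 8.64 in Homo. In all 3 regions every Homo fold was below every Het fold, although folds come from lists called separately and were not tested between them. Regions with equal library counts were ordered by Het rank, which favours high Het folds in the first ones. At Psme3 (chr11:101315817-101316332) the groups overlapped, with 6.11, 12.3 and 9.81 in Het and 7.37, 7.54 and 7.38 in Homo. They also overlapped at Mrpl23, a mitochondrial ribosomal protein (chr7:142533164-142533658), with 9.40, 6.62 and 5.01 against 8.27, 8.42 and 3.54. The remaining regions with all 3 Homo libraries were those of Dazap1, Ube2cbp, Ifrd2, which carries an interferon-related domain, and Supv3l1, a mitochondrial RNA helicase. Het and Homo folds overlapped at each of these too. The first kept regions with 2 Homo libraries lay at the start shared by Fam185a and Ccdc146, at Xpot and at Cox5a, a subunit of cytochrome c oxidase. Homo replicate 2 was the library without a peak at these 3.

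By gene, 690 of 21887 protein-coding genes (3.15%) had a Het-only region at their start, 169 had one with a single Homo peak and 56 (0.256%) a kept region. Of the 915 genes with a region in 2 or more Het libraries, 24.6% had a peak in some Homo library and 6.12% were kept. Gene lists were read against these shares. Ribosomal proteins of the small subunit had 14 Het-only members of 34, 3 with 1 Homo peak and 0 kept. Those of the large subunit had 13 Het-only members of 54, 4 with 1 Homo peak and 4 kept. Among the 17 bound small-subunit genes 17.6% had a Homo peak, against 38.1% of 21 large-subunit genes, and these shares lie on either side of the 24.6% of all bound genes. Rps10 had folds of 7.97 and 11.8 in Het replicates 1 and 2 and Rps25 had 10.1 and 10.7, with no peak in Het replicate 3 or in Homo. The kept large-subunit genes were Rpl12, Rpl10a, Rpl32 and Rpl5. At Rpl12 folds were 10.3, 9.67 and 7.12 in Het and 4.98 and 5.76 in Homo replicates 1 and 3, and Rpl32 had 13.4, 9.69 and 5.61 in Het and 6.19 and 7.96 in Homo. No gene of either ribosomal list had a peak at its start in Homo replicate 2, the shortest list. Without Homo replicate 1 or 3 no large-subunit gene was kept, and with Het replicate 1 or 2 left out none was Het-only. In the same case 1 small-subunit gene was Het-only, as were 3 assembly factors, 2 translation factors and 1 gene of nucleotide and polyamine synthesis, lists described next.

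Ribosome assembly factors were bound in similar measure. Of 61, 18 were Het-only, 10 had 1 Homo peak and 2, Ncl and Nop56, were kept. The Het-only members included Ppan, Fbl (the methyltransferase of box C/D particles), Bop1 and Pes1 (partners in large-subunit assembly), Rcl1 and Usp36. The 10 with a single Homo peak included Nolc1, Gnl3, Ddx21, Nop58 and Dkc1. Nop56, a scaffold of box C/D particles, had folds of 7.67 and 16.4 in Het replicates 1 and 2 and 6.10 and 4.81 in Homo replicates 1 and 3. A Homo peak was thus listed at 12 of the 30 bound assembly genes. RNA polymerase I machinery gave 5 Het-only members of 20 (Polr2h, Taf1c, Twistnb, Rrn3 and Polr1d), 1 with a Homo peak (Polr1b) and 0 kept. Taf1c, part of the selectivity factor that recruits the polymerase to ribosomal DNA, had folds of 9.16 and 11.0 in Het replicates 1 and 2. The Polr2h summit lay nearer to the start of Clcn2, so either gene could own it.

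Translation factors gave 9 Het-only members of 48, 3 with 1 Homo peak and 3 kept. The kept genes were Eif5a, the hypusinated factor that relieves stalled ribosomes, Eif3e and Eif1a. In Homo replicate 3, Eif3e and Eif1a stood at percentiles 0.331 and 3.81, near the bottom of the list, and in Homo replicate 1 at 76.6 and 61.3. With −log10 q of at least 5, or with fold of at least 5, 1 translation factor was kept. Without Homo replicate 1 or 3 the count was 0. Eif5a had folds of 20.0, 15.6 and 7.37 in Het and 5.98 and 9.28 in Homo replicates 1 and 3. Het-only members included Pabpc1, which binds poly(A) tails, with folds of 4.66, 10.7 and 6.84, and Eif4b, a helper of the cap-bound helicase, with 5.14, 5.83 and 6.66. Among aminoacyl-tRNA synthetases Tars and Gars were Het-only and Vars was kept, of 22. Nucleotide and polyamine synthesis gave 11 Het-only members of 35, 3 with 1 Homo peak and 2 kept. The 2 kept genes both make polyamines. At Odc1, ornithine decarboxylase (chr12:17544963-17545436), folds were 9.54, 17.8 and 5.66 in Het and 4.42 and 7.98 in Homo replicates 1 and 3. At Srm, spermidine synthase (chr4:148591604-148592137), they were 15.03, 8.51 and 11.1 in Het and 7.11 and 6.64 in Homo. Amd1, the third polyamine enzyme bound in Het, was Het-only, and so were the purine and pyrimidine genes Cad, Pfas, Paics and Ppat. Atic, Impdh1 and Ctps had a peak in 1 Homo library.

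**Figure D4:**
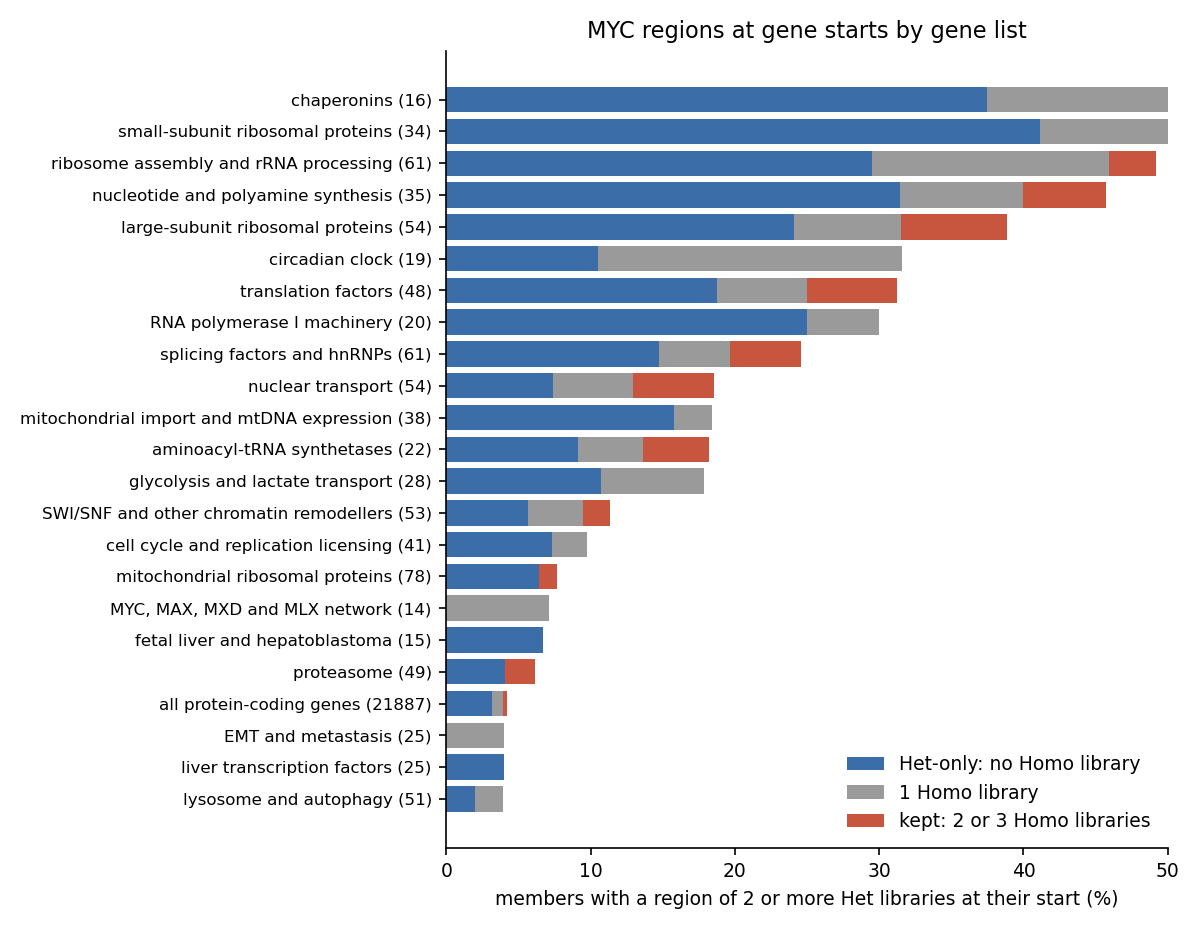
Percent of the members of each gene list (list size in brackets) with a region of 2 or more Het libraries at their start, split by the number of Homo libraries that also had a peak there. Het-only members make up 41.2% of the small-subunit ribosomal proteins and 3.15% of all protein-coding genes. Lists with 0 members in any class are not drawn.

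Of all 915 bound genes, 690 were Het-only, and lists of protein folding and the mitochondrion had shares near or above that on few members. Chaperonins gave 6 Het-only members of 16, all of them subunits of the cytosolic ring (Cct2, Cct3, Cct4, Cct6a, Cct7 and Cct8), while the mitochondrial pair Hspd1 and Hspe1, which share a start region, had a peak in 1 Homo library. The Cct3 summit lay nearer to the start of Tsacc, so either gene could own it. Mitochondrial import and mtDNA expression gave 6 Het-only members of 38, among them Tomm5 and Tomm20 of the outer membrane channel, and 0 kept. Mitochondrial ribosomal proteins gave 5 Het-only members of 78 and 1 kept. The proteasome list gave 2 Het-only members of 49 and Psme3 as kept. Nuclear transport and splicing had kept members in larger number. Of 54 transport genes, 4 were Het-only (Kpnb1, Ranbp1, Nupl1 and Nutf2), 3 had 1 Homo peak and 3 were kept (Xpot, Ran and Seh1l). At Ran folds were 6.26, 11.4 and 8.23 in Het and 5.13 and 8.93 in Homo replicates 1 and 3. Seh1l stood at percentiles 9.01 and 2.65 of these 2 Homo lists, and Xpot and Ran at 20.7 or higher. Of 61 splicing factors, 9 were Het-only, 3 had 1 Homo peak and 3 were kept (Pcbp1, Snrpd1 and Hnrnpa1). Snrpd1 stood at percentiles 1.35 and 14.2 of Homo replicates 1 and 3, and Pcbp1 and Hnrnpa1 at 19.4 or higher. With so few members per list a share of bound genes rests on single genes, such as 6 of 10 for nuclear transport.

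Chromatin remodellers gave Mbd3, Ruvbl1 and Srcap as Het-only, Pbrm1 and Smarca4 with 1 Homo peak and Ino80 as kept, of 53 genes. Smarca4 encodes an ATPase of the SWI/SNF complex and Pbrm1 a subunit of its PBAF form. Ino80, the motor of another remodelling complex, had folds of 4.02, 8.71 and 6.03 in Het and 7.38 and 5.42 in Homo replicates 2 and 3. At Arid1a itself (chr4:133754257-133754500) Het replicate 2 was the 1 library of the 6 with a peak, with a fold of 7.74 from 38 reads, and WT replicate 3 had a peak there too. The lists show binding and not transcripts or alleles, so the loss of Arid1a could not be checked from them. No region lay at the start of Myc or Alb, and the region nearest to Cebpb, a Het-only one, lay 1185 bp from its start. In the MYC, MAX, MXD and MLX network, 1 of 14 genes (Mga, with 1 Homo peak) had a region in 2 or more Het libraries.

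Of 19 circadian genes, 6 had a region in 2 or more Het libraries, beside 15 of 48 translation factors and 915 of all 21887 genes. Dbp and Clock were Het-only and 4 genes, Nr1d1, Nr1d2, Ciart and Per2, had a peak in 1 Homo library. Of the clock genes bound in Het, 66.7% (4 of 6) thus had a Homo peak, against 24.6% of all bound genes, and 0 were kept. All 4 had it in Homo replicate 3, which supplied 185 of the 216 regions with a single Homo peak. In the list of 28 genes for glycolysis and lactate transport, Hk2 and the lactate carrier Slc16a1 were Het-only and Pkm and Ldha had 1 Homo peak. The glucose-6-phosphatase G6pc3, also placed in that list, was Het-only too. Cdt1, Mcm7 and Aurka were Het-only among 41 cell cycle genes, and Ccne2 had 1 Homo peak. Of 51 lysosome and autophagy genes Map1lc3b was Het-only and Fnip2 had 1 Homo peak, and of 25 genes of the epithelial-mesenchymal transition Snai1 had 1 Homo peak. Hepatocyte products, and markers of immune, endothelial and stellate, and bile duct cells had 0 regions in 2 or more Het libraries among 31, 18, 16 and 10 genes. The liver transcription factor Ppara and the fetal liver gene Dlk1 were Het-only. Markers of those other cell types were thus in neither class, which says nothing of their expression.

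Away from gene starts, kept regions were ordered by the number of libraries with a peak and then by Het rank. The first ones thus had a peak in all 6 libraries by choice. The leading kept region (chr5:142367360-142367920) lay between genes, with Foxk1 as the nearest coding start, and had folds of 21.96, 19.9 and 21.6 in Het and 10.3, 10.4 and 16.3 in Homo. The next (chr15:79978480-79979222), nearest to the start of the Polycomb gene Cbx7, had 16.7, 32.8 and 30.8 in Het and 10.8, 11.6 and 14.5 in Homo. In both, all Homo folds lay below all Het folds, which the ordering by Het rank favours and which was not tested. The leading Het-only region away from starts (chr10:24269013-24269650) lay inside a gene body, with Moxd1 as the nearest coding start at 45684 bp, and had folds of 21.1, 17.9 and 12.5. It had a peak in all 3 WT libraries. Some kept regions lay near a start that the 1 kb limit or the coding filter missed. Of the 46 kept regions away from coding starts, 8 lay within 5 kb of one, among them Npm1 (nucleophosmin), Ptma (prothymosin alpha), Tfap4 and Serbp1, and 3 lay at the start of a non-coding gene (Snhg15, Pvt1 and Snhg17). At Npm1 folds were 18.3, 13.5 and 5.10 in Het and 4.09 and 9.84 in Homo replicates 1 and 3. At the Snhg15 start (chr11:6527973-6529024), a host gene of small nucleolar RNA, they were 12.95, 25.5 and 6.87 in Het and 9.89, 6.32 and 10.8 in Homo. For Het-only regions 36 of 242 away from coding starts lay at a non-coding start and 78 within 5 kb of a coding one. One kept region (chr1:24612507-24614147) had a local background 87.8 times the lowest of its list and folds of 1.66 to 2.13, the highest background of any region described here. In the Het lists, 29.2% of kept, 31.0% of 1-Homo and 15.1% of Het-only regions had a local background at least 5 times the lowest. Among Het-only regions it reached 37.4 times.

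Most Het-only regions were listed in WT tumours. In WT replicates 1, 2 and 3, a peak overlapped 3.01%, 66.7% and 94.7% of Het-only regions and 42.7%, 100% and 100% of kept regions, and 29 Het-only regions (3.35%) had no WT peak. The kept share was higher by 39.7, 33.3 and 5.32 percentage points, in 3 of 3 WT libraries (exact sign-flip permutation p = 0.25, the smallest possible). WT replicate 1 split by place. It had a peak in 0 of 623 Het-only regions at gene starts (exact 95% interval up to 0.590%). Kept regions had one in 11 of 50 at gene starts and in 30 of 46 away from them. This library had 92 peaks, 16 of them at gene starts, so it could overlap few of the 623 regions whatever their binding. Regions in 1 Homo library were listed in WT replicates 2 and 3 almost as often as kept ones, at 95.8% and 99.1%, while WT replicate 1 listed 5.56% of them, against 42.7% of kept regions.

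**Figure D5:**
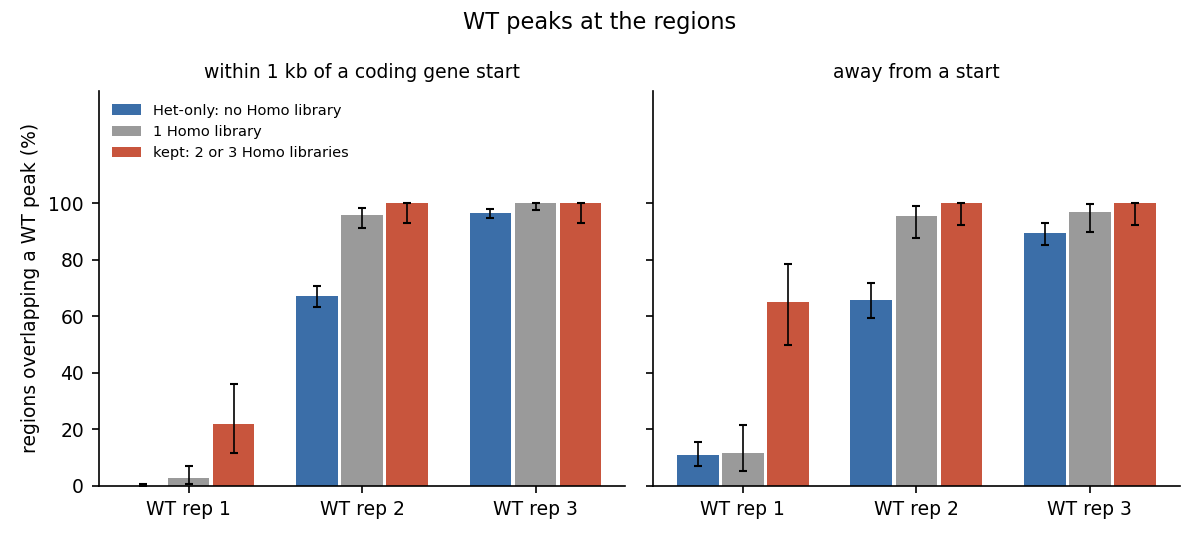
Percent of regions overlapped by a peak of each WT library (vertical axis), for regions at gene starts and away from them, by the number of Homo libraries with a peak. Bars carry exact 95% intervals. WT replicate 3 covers 96.6% of Het-only regions at gene starts and WT replicate 1, whose list has 16 gene-start peaks, covers 0 of 623.

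Regions on either side of the limits show what the rule passed over. Nop2, a nucleolar methyltransferase of ribosomal RNA, had a single Het peak, in replicate 2, with a fold of 14.7 at the 95.4th percentile, and so was not counted as Het-only. Zc3h8 had a single one in Het replicate 1, with a fold of 14.4. Just short of the kept class, the region at the start of Otud4 and Gm51579 had folds of 14.4 and 15.3 in Het replicates 1 and 2 and 4.46 in Homo replicate 3. In all, 1258 regions had 1 Het peak and no Homo peak.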

How the data were processed

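Peaks were called per library. Per the submitters' processing notes, the authors used mm10 with MACS2 2.0.10.20131216, Bowtie2 2.2.3, HOMER and Picard, and the caller's limit was not given in the sources used here. The deposited narrowPeak lists give the authors' fold enrichment (a linear ratio), their −log10 p and q values as deposited, and a deposited integer score, which was not used. Folds served to describe and filter peaks within a list. Input samples had no list of their own used here.

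Peaks of 6 libraries that overlapped by at least 1 bp were merged. Gene starts came from RefSeq (GRCm38.p6): start sites and the strand-matched span end for 17492 of 21887 protein-coding genes, and either span end for the other 4395, whose strand the tables do not give. A region was at a gene start when the summit of its highest −log10 q Het peak lay within 1 kb, and a gene with regions of several classes counted in the class with more Homo libraries. Reads at the summit and input depth were solved from fold and −log10 p, with 1 whole number of reads for at least 99.1% of peaks per library, tested on simulated data. Shares carry exact Clopper-Pearson 95% intervals and comparisons use exact permutation over libraries (Python 3.11.15, SciPy 1.17.1). Thinning multiplied summit reads and background by 1 factor per library and recomputed p.

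Named regions were the 12 Het-only and 12 kept regions at gene starts with the highest library counts and ranks, up to 3 members per list and class, 4 regions per class away from starts, Arid1a, Myc, Alb and Cebpb, and 6 around the limits, of which a selection is printed. 1 gene named by this rule is not reported here. Windows printed were limited to those that hold the summit, and to E-box holders for the list members. Kept regions near other starts and the region of high input were picked after their values were seen. Members and lists were chosen with earlier results of these data known, and the lists carry no test. Correlations over regions between same-numbered Het and Homo libraries were 0.007, 0.043 and 0.068. Each was the highest that its Het library had with any Homo library, while pairs of different number ran from -0.065 to 0.013. Replicate numbers are shared by title only, so they were not taken as pairs in the main tests.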

Additional observations from a re-analysis of the deposited data

How the results depend on the processing

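No mean difference between genotypes or classes changed sign under the alternatives run. The 92 values of the 7 results include the Het-only and kept counts, which have no direction. No test here can reach the threshold with 3 libraries a group. Several values moved by over 1.5 times. Het-only regions numbered 119 when all 3 Het libraries were required, 443 after thinning with −log10 p of at least 10, and 3 with lists cut to the shortest. Kept regions numbered 20 with lists cut to the shortest, so there they outnumbered Het-only ones. Leaving out 1 library gave 135 to 1050 Het-only and 23 to 96 kept regions, log10 differences in peak number of -1.17 to -0.76, gene-start differences between genotypes of -18.0 to -0.15 points and between classes of 5.34 to 39.7, rank gaps of 36.7 to 46.1, and WT gaps of 15.3 to 37.6. With replicate numbers as a replicate block the differences of -0.948 in peak number and -11.9 points in gene-start share stay the same by construction. Only p can change, and the exact sign-flip permutation p was 0.25 and 0.75 in turn. The pairing rests on numbers alone. Chosen after seeing the data were the kept count under thinning (71), start sites of the promoter table alone (class difference 16.0 points), and gene starts alone (rank gap 38.3 and WT gap 19.4). Of 110 list counts, 36 moved by over 1.5 times. The use of peak lists limits every absence here, since a weak Homo site and an absent one look the same in a list.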
